A study of Mus musculus with 12 samples.

Results

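Slc32a1, Dlx2, Sp9, Calb2 and Sncg are genes that mark inhibitory interneurons, or classes of them, without encoding a secreted peptide. They were chosen by name, and all 5 were found among the 10245 gene symbols of the CA1 expression table and passed the filter of a mean of at least 0.5 FPKM that left 2423 genes for testing. RNA-Seq was done on hippocampal CA1 of 6 Tip60 cKO and 6 control mice, all male per the sample labels, littermates of the C57BL/6N strain with a floxed Tip60 gene. Tip60 (symbol Kat5) encodes a lysine acetyltransferase. Tip60 cKO mice also carried CreERT2, a tamoxifen-inducible Cre recombinase driven by the Camk2a promoter in excitatory neurons of the forebrain, and controls had no Cre. Both genotypes received tamoxifen at 2 months of age and were killed 10 days after the last injection. Dorsal CA1 of both hemispheres was pooled per mouse and gave 1 library, so n counts mice. Cre and the loss of Tip60 cannot be told apart in this design, and Kat5 was not analysed here, so the genotypes were not checked against the deleted gene.

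Interneurons of CA1 release GABA onto pyramidal neurons and are a small minority of the cells in the region. Slc32a1 encodes the vesicular GABA transporter VGAT, which loads GABA and glycine into synaptic vesicles and is shared by all classes of interneurons. Dlx2 and Sp9 encode transcription factors, a homeodomain and a zinc finger protein, that act in the ganglionic eminences of the embryo, where interneurons are born, and in neuroblasts of the adult forebrain. Calb2 encodes calretinin, a calcium buffer of interneurons that contact other interneurons, and is also found in mossy cells and immature granule cells of the mouse dentate gyrus. Sncg encodes gamma-synuclein and marks a group of cholecystokinin interneurons in mouse cortex. The Cre driver is not directed at interneurons, so a level in CA1 tissue adds up cells that do not carry the deletion with those that may. In such tissue, fewer cells of a type and less RNA per cell cannot be told apart.

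Promoter windows of 4 of the 5 genes were read from RefSeq (GRCm38.p6), from 250 bases before to 50 after the transcript start. The windows of Slc32a1 and Dlx2 are shown because these genes had nearly the same ratio between genotypes and different letters at their starts. Capitals mark matches on either strand to 5 short motifs. The GC box, bound by zinc finger factors of the SP family, was searched as GGGCGG. The core bound by many homeodomain proteins was searched as TAATTA, and the cyclic AMP response element (CRE) as TGACGTCA. The E-box of basic helix-loop-helix factors was searched as CACGTG, and the TATA box of core promoters was searched as TATAAA.
Slc32a1: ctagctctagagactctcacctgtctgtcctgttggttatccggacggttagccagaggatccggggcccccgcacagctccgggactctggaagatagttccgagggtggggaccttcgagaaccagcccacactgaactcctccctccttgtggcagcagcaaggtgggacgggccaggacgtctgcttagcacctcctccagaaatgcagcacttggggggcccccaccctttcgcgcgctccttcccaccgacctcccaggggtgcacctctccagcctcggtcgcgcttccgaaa
Dlx2: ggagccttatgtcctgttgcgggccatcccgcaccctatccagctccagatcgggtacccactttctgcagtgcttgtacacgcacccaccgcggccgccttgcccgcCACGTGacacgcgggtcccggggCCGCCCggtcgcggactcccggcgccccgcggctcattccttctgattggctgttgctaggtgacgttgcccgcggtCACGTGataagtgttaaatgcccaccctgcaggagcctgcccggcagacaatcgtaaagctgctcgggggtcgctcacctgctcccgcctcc
The Slc32a1 window (chr2:158610508-158610807, plus strand) had a match to none of the 5 motifs. The Dlx2 window (chr2:71546705-71547004, minus strand) had 2 matches to the E-box and 1 to the GC box, here read as CCGCCC on the printed strand. The windows of Sp9 (chr2:73271676-73271975, plus strand) and Sncg (chr14:34374620-34374919, minus strand) each had 1 GC box and no other match. Of 32851 mouse promoter windows of this length, 35.7% held a GC box, 7.15% an E-box, 13.6% a TATA box, 5.29% a homeodomain core and 1.79% a CRE. All 4 windows were GC-rich, with 66.3% G and C in Dlx2, 63.7% in Sp9, 63.3% in Slc32a1 and 61.3% in Sncg, against a median of 52.7% over all windows. A match is a description of letters and not of a bound site.

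Slc32a1 was higher in Tip60 cKO than in control CA1, and it was the only member whose genotypes did not overlap. The 6 Tip60 cKO libraries had 22.8, 25.2, 22.3, 24.1, 26.8 and 26.1 FPKM, against 18.5, 19.6, 19.6, 19.8, 20.2 and 20.2 FPKM in the 6 control libraries. The lowest Tip60 cKO library thus lay above the highest control library, and the controls were packed within a narrower range. The means were 24.5 ± 1.78 FPKM in Tip60 cKO and 19.6 ± 0.623 FPKM in controls (SD, n = 6 each), a ratio of 1.25. On the log2(FPKM + 1) scale, on which all tests were made and which understates the change of low genes, the difference was 0.30 (SE 0.04, 95% interval 0.21 to 0.40; limma adjusted p = 4.32e-05 over all tested genes). An exact two-sided permutation test, which has 924 arrangements of 6 against 6 libraries, gave p = 0.00216, the smallest it can give. Slc32a1 lies on chromosome 2 from 158610767 to 158615748 (GRCm38, GENCODE) and has 2 exons. Its exons overlap those of the antisense gene Gm14205, and because no source used here says whether the kit kept the strand, reads of both cannot be told apart.

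**Figure D1:**
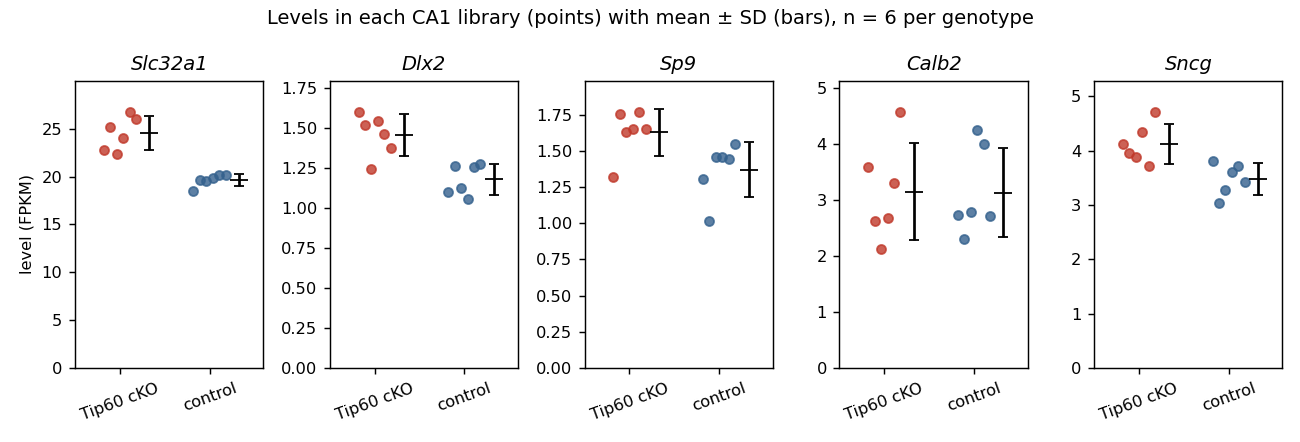
Level of each member in FPKM in the 6 Tip60 cKO (red, left) and 6 control (blue, right) CA1 libraries, with the mean and SD as bars. Only Slc32a1 has every Tip60 cKO library (22.3 to 26.8 FPKM) above every control library (18.5 to 20.2 FPKM), and Calb2 covers the same range in both genotypes.

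Both transcription factor genes were low, between 1 and 2 FPKM in every library. Dlx2 was higher in Tip60 cKO, and Sp9 did not pass the adjusted threshold. Dlx2 had a low of 1.25, a median of 1.49 and a high of 1.6 FPKM in Tip60 cKO, against 1.06, 1.19 and 1.28 FPKM in controls. In 5 of 6 Tip60 cKO libraries it was above every control library, and the remaining one, library 3, fell inside the control range. The means of 1.46 ± 0.130 FPKM in Tip60 cKO and 1.18 ± 0.0961 FPKM in controls gave a ratio of 1.24, and the difference on the log2(FPKM + 1) scale passed the test (0.17, SE 0.05, 95% interval 0.07 to 0.28; limma adjusted p = 0.00642; exact permutation p = 0.00866). Dlx2 lies on chromosome 2 from 71543408 to 71546754 and has 3 exons.

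Sp9 had a low of 1.32, a median of 1.65 and a high of 1.77 FPKM in Tip60 cKO, against 1.01, 1.45 and 1.55 FPKM in controls. Tip60 cKO library 1 was the low one and control library 2 lay below all others, while the other 5 Tip60 cKO libraries were above every control. The means of 1.63 ± 0.164 FPKM in Tip60 cKO and 1.37 ± 0.192 FPKM in controls gave a ratio of 1.19, and the difference of 0.15 on the log2(FPKM + 1) scale (SE 0.06, 95% interval 0.02 to 0.28) had a limma adjusted p of 0.0514. The exact permutation p of 0.0303 is not adjusted for the number of genes. Library 1 of Tip60 cKO was also the one with Ttr, a choroid plexus gene, at 201 FPKM, where no other library exceeded 0.911 FPKM. Without that library the Sp9 difference was 0.19 (limma adjusted p = 0.0162), and without control library 6 it was 0.17 (limma adjusted p = 0.0357). Leaving out any other single library kept the limma adjusted p above 0.05, and without control library 2, the low control, the difference was 0.10 (limma adjusted p = 0.115). The part of choroid plexus RNA in the Sp9 value was not tested. Sp9 lies on chromosome 2 from 73271925 to 73284706 with 2 exons, and its span, but no exon, overlaps Cir1 on the other strand.

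Calb2 had the same mean in both genotypes and by far the widest spread of the members. Its values were 3.58, 2.62, 2.12, 2.67, 3.31 and 4.57 FPKM in Tip60 cKO libraries 1 to 6, against 2.74, 2.29, 2.79, 4.25, 3.99 and 2.71 FPKM in control libraries 1 to 6. High and low libraries occurred in both genotypes, and the ranges overlapped almost completely. The means were 3.15 ± 0.872 FPKM in Tip60 cKO and 3.13 ± 0.793 FPKM in controls (SD, n = 6 each), a ratio of 1.01. The limma difference on the log2(FPKM + 1) scale was 0.00 (SE 0.15, adjusted p = 0.992; exact permutation p = 0.991). Its 95% interval of -0.32 to 0.32 does not show that the levels were alike, since with a pseudocount of 0.1 FPKM it allows a fold between 0.755 and 1.33. Calb2 lies on chromosome 8 from 110137502 to 110168210 and has 11 exons and 2 annotated transcripts.

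Sncg had a low of 3.71, a median of 4.04 and a high of 4.71 FPKM in Tip60 cKO, against 3.03, 3.52 and 3.81 FPKM in controls. Of the Tip60 cKO libraries, 5 of 6 were above every control, and library 5 fell inside the control range. The means of 4.12 ± 0.362 FPKM in Tip60 cKO and 3.48 ± 0.293 FPKM in controls gave a ratio of 1.18, and the difference on the log2(FPKM + 1) scale passed the test (0.19, SE 0.06, 95% interval 0.07 to 0.31; limma adjusted p = 0.0100; exact permutation p = 0.00649). Sncg lies on chromosome 14 from 34370274 to 34374789 and has 5 exons.

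Of the 5 members, 3 (Slc32a1, Dlx2 and Sncg) passed an adjusted p of 0.05, all higher in Tip60 cKO, where 40.3% of all tested genes passed as higher and 54.8% in either direction. Only Slc32a1 also passed a fold of 1.2 on the FPKM + 1 scale, 1 of 5 members against 20.1% of all tested genes. It was likewise 1 of 5 with every Tip60 cKO library above every control, against 25.1% of all tested genes. No member was lower, where 14.4% of tested genes passed the adjusted p and 6.52% both thresholds in that direction, and 8.34% had every Tip60 cKO library below every control. The members' counts are near these backgrounds. Over all tested genes the median log2 difference of FPKM + 1 was 0.10. Slc32a1 stood 0.21 above that median, Sncg 0.10, Dlx2 0.08 and Sp9 0.06 above it, and Calb2 at -0.09 from it. The order of these distances depends on the scale, which understates the change of low genes. With a pseudocount of 0.1 FPKM the log2 differences were 0.32 for Slc32a1, 0.28 for Dlx2, 0.24 for Sp9, 0.24 for Sncg and 0.00 for Calb2. Larger log2 differences than that of Slc32a1 were found in 16.2% of tested genes.

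**Figure D2:**
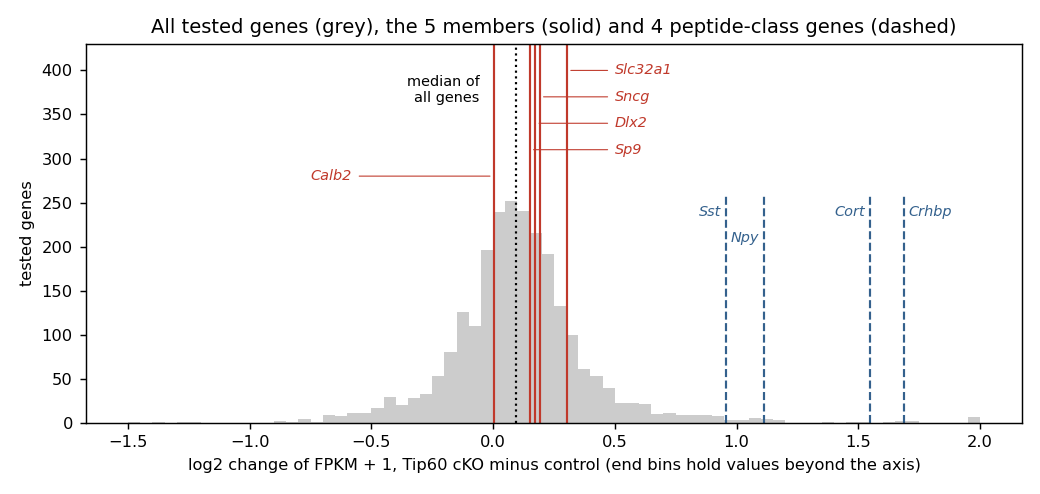
Distribution of the log2 difference of FPKM + 1 (Tip60 cKO minus control) over 2423 tested genes, with the members as solid lines, Sst, Npy, Cort and Crhbp as dashed lines and the median of all genes as a dotted line. The members lie between 0.00 and 0.30, within the bulk of the genes, and the dashed lines lie to the right of the bulk.

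The small shifts depended on how libraries were set against each other. The values were compared as deposited, and 3 other scalings moved the median of all genes from 0.10 to -0.02, 0.01 and 0.04. The share of higher genes among all calls was 75.5% as deposited, 40.2% with median-ratio scaling over genes above 0 in every library, 50.9% with median-ratio scaling over tested genes and 60.1% with upper-quartile scaling. Slc32a1 kept a limma adjusted p below 0.05 under each, with log2 differences of 0.15, 0.19 and 0.23 (adjusted p = 0.00666, 0.00124 and 0.000435), but no longer passed the fold of 1.2. Dlx2 no longer passed the adjusted p under the first of these scalings (0.08, limma adjusted p = 0.119), and Sncg passed it under none of the 3 (0.06, 0.10 and 0.13, limma adjusted p = 0.356, 0.148 and 0.0567). Calb2 was at -0.12, -0.09 and -0.06. Relative to the median of all genes the members moved little between the 4 scalings. Slc32a1 was 0.17 to 0.21 above that median, Dlx2 0.08 to 0.11, Sncg 0.09 to 0.10 and Sp9 0.06 to 0.08 above it. Calb2 was at -0.10 to -0.09 from it. These distances are on the FPKM + 1 scale, which understates the change of low genes.

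**Figure D3:**
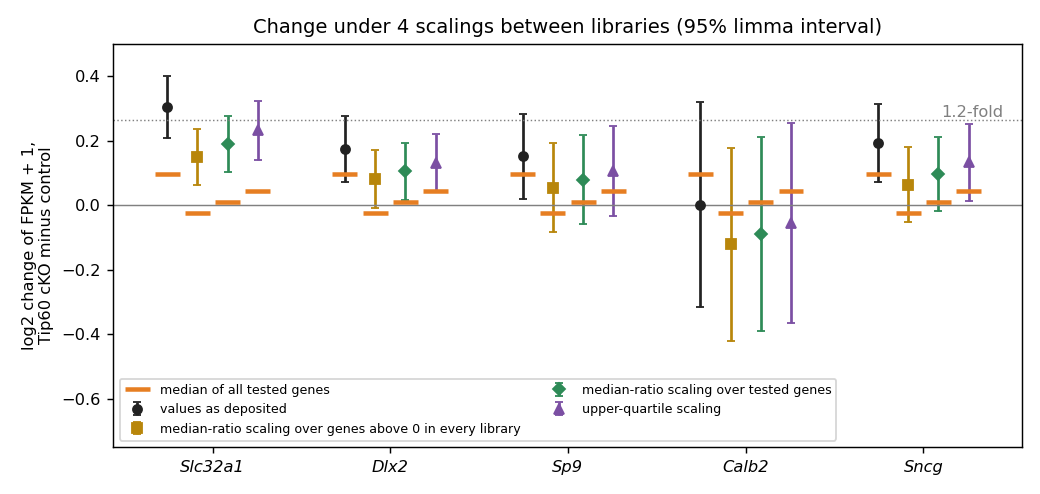
Log2 difference of FPKM + 1 (Tip60 cKO minus control) for each member under 4 scalings between libraries, with 95% limma intervals, the median of all tested genes under the same scaling (orange) and a fold of 1.2 (dotted line). The Slc32a1 intervals stay above 0 under all 4 scalings, and every Calb2 interval spans 0.

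FPKM is divided by transcript length, so levels can be ordered between genes. Slc32a1 was the highest member in all 12 libraries, at 5.96 times Sncg in Tip60 cKO and 5.65 times Sncg in controls by mean FPKM. Sncg was above Calb2 in 6 of 6 Tip60 cKO libraries and in 4 of 6 control libraries, so these neighbours were not separated in controls. Calb2 was above Sp9 and Dlx2 in every library. Sp9 was above Dlx2 in 5 of 6 libraries of each genotype, and the order was the other way in the remaining library of each, so these neighbours were not fully separated. Among all tested genes, 20.6% had a higher mean level than Slc32a1 and 77.4% a higher one than Dlx2.

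The depth, estimated from the value that 1 read takes in each library, was 33.2 ± 1.70 M reads (M, mega) in Tip60 cKO and 35.4 ± 2.41 M in controls (SD, n = 6 each; exact two-sided permutation p = 0.10). At this depth Slc32a1 rested on about 1629 to 2447 reads per library, Sp9 on 168 to 275, Calb2 on 85.1 to 202, Dlx2 on 85.7 to 141 and Sncg on 95.2 to 135. Counting of reads alone would give Dlx2 a coefficient of variation of 9.18% in Tip60 cKO and 9.89% in controls, and the observed values were 8.91% and 8.14%. Sncg was likewise near its counting error, with 8.79% observed and 9.31% from counting in Tip60 cKO, and 8.41% observed and 9.80% from counting in controls. For both genes the libraries of a genotype could not be told apart at this depth. Sp9 varied by 10.0% in Tip60 cKO and 14.0% in controls, above the 6.43% and 6.84% from counting. Slc32a1 varied by 7.24% in Tip60 cKO and by 3.17% in controls, where counting gives 2.10% and 2.28%.

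Calb2 varied by 27.7% in Tip60 cKO and 25.4% in controls, about 3 times the 9.02% and 8.71% from counting. Among tested genes of like level, within 1.5-fold of its mean, only 4.31% of 348 genes varied more in Tip60 cKO and 4.80% of 333 in controls. Because calretinin is also made in the dentate gyrus next to CA1, its libraries were set beside C1ql2, a gene of dentate granule cells. C1ql2 had 5.14, 5.80, 1.45, 1.96, 0.759 and 2.30 FPKM in Tip60 cKO libraries 1 to 6, against 1.68, 1.09, 5.96, 3.14, 5.95 and 8.46 FPKM in control libraries 1 to 6. Tip60 cKO library 1 and control library 5 were each second highest for Calb2 in their genotype and also had more than 5 FPKM of C1ql2. Tip60 cKO library 6 and control library 4, the highest for Calb2, had 2.30 and 3.14 FPKM of C1ql2, and the highest for C1ql2 were Tip60 cKO library 2 and control library 6. The summed level of the 5 dentate granule cell markers in the table was 7.43 to 17.5 FPKM in Tip60 cKO and 7.75 to 22.7 FPKM in controls. None of the 5 was called, where 20.1% of all tested genes were called higher and 6.52% lower. Of the mossy cell and Cajal-Retzius cell lists, Calb2 itself was the one tested gene, so the part of those cells in its spread was not tested.

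**Figure D4:**
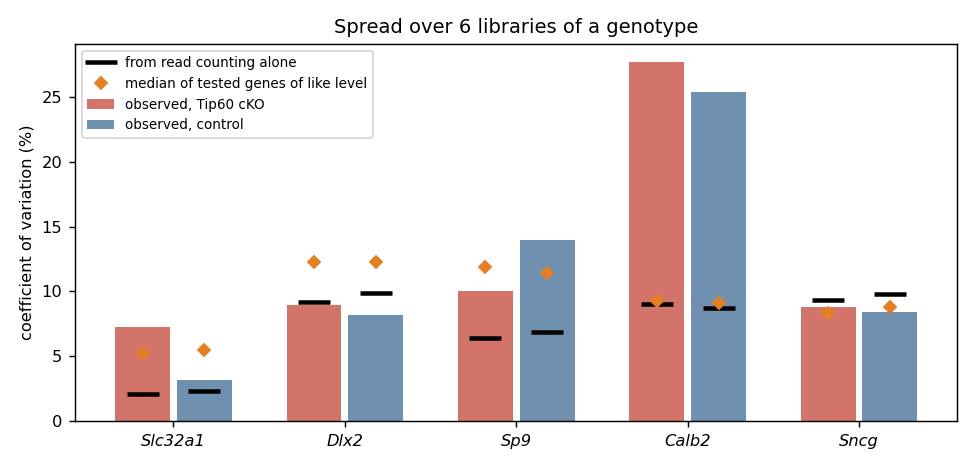
Coefficient of variation in percent over the 6 libraries of Tip60 cKO (red, left bar) and control (blue, right bar), with the variation from counting reads alone (black line) and the median of tested genes of like level (orange diamond). Dlx2 and Sncg lie at their counting error, and Calb2, at 27.7% and 25.4%, lies far above its own.

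Ratios between members within a library do not depend on the scaling. All 10 pairs were compared, and none differed between genotypes (lowest adjusted p = 0.698, exact two-sided permutation test over libraries with adjustment over the 10 pairs). The ratio of Dlx2 to Slc32a1 in Tip60 cKO was 0.978 times that in controls (95% interval 0.874 to 1.09). That of Sp9 to Slc32a1 was 0.948 times (0.823 to 1.09) and that of Sncg to Slc32a1 was 0.946 times (0.831 to 1.08). All 3 intervals span 1 and reach no lower than 0.823. For Calb2 over Slc32a1 the fold of 0.803 had a wide interval (0.598 to 1.08; exact permutation p = 0.130 before adjustment), so it was the least determined of the 4 ratios to Slc32a1.

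Peptide genes of interneurons were set against Slc32a1 in the same way, a comparison added after the values were seen. Relative to Slc32a1, Sst, which encodes somatostatin, was 1.56-fold higher in Tip60 cKO than in controls (95% interval 1.46 to 1.67). Npy, neuropeptide Y, was 1.75-fold higher (1.5 to 2.04), Cort, cortistatin, 2.85-fold (2.24 to 3.62) and Crhbp, a binding protein for corticotropin-releasing hormone, 2.70-fold (2.38 to 3.07). Each of the 4 ratios had no overlap between genotypes. The exact permutation p of each was 0.00216, the smallest possible, or 0.00303 after adjustment over the 7 ratios added. The share of all tested genes whose ratio to Slc32a1 would separate in this way was not computed. In level, 25.1% of all tested genes had every Tip60 cKO library above every control. In level, Sst was at 616 ± 27.2 FPKM in Tip60 cKO and 317 ± 16.4 FPKM in controls (SD, n = 6 each). The list of interneuron peptides and Crhbp had 6 tested genes, with a median log2 difference of 1.03. Of these 6, 5 were called higher, against 20.1% of all tested genes. The list was chosen with earlier results of these data known. The gene not called, Tac2, differed by 0.07 (limma adjusted p = 0.623), and its ratio to Slc32a1 was not compared. The 5 members had differences of 0.00 to 0.30 in the same libraries.

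**Figure D5:**
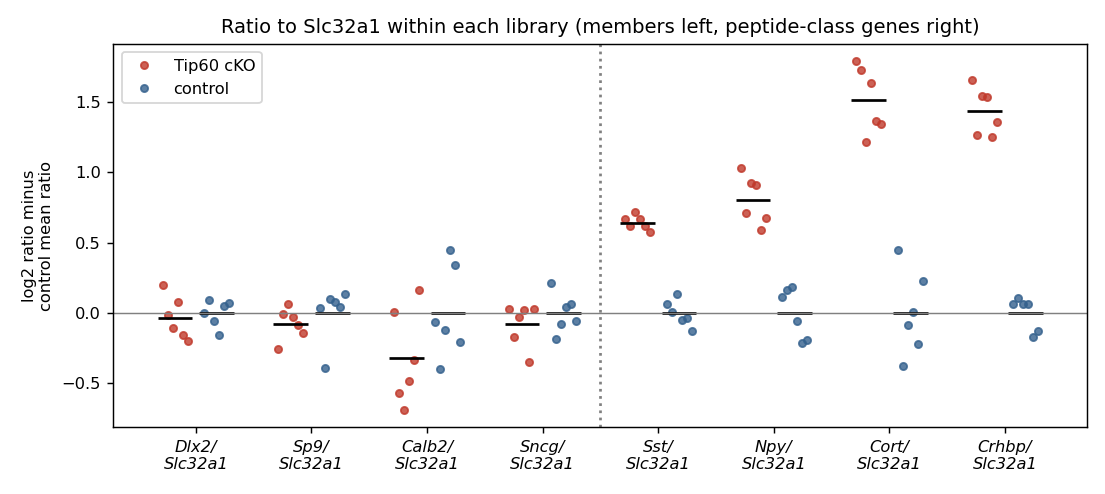
Log2 ratio to Slc32a1 within each library, minus the control mean of that ratio, for 4 members (left of the dotted line) and 4 peptide-class genes (right), in Tip60 cKO (red) and control (blue) libraries with group means as black lines. For the members the genotypes overlap, and for Sst, Npy, Cort and Crhbp every Tip60 cKO library lies above every control library.

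The genes that share a task with each member were read from lists, chosen with earlier results of these data known. Over all tested genes, 20.1% were called higher and 6.52% lower. For GABA handling, 4 of 9 listed genes were in the table and all 4 were tested, with 1 called higher (Slc32a1), none called lower and a median log2 difference of 0.15. Abat, the transaminase that breaks down GABA, was at 59.3 ± 2.05 FPKM in Tip60 cKO and 49.7 ± 2.86 FPKM in controls, a log2 difference of 0.25 (limma adjusted p = 0.000101) that stayed within the fold of 1.2. The ratio of Slc32a1 to Abat in Tip60 cKO was 1.04 times that in controls (95% interval 0.954 to 1.14; exact permutation p = 0.316). Aldh5a1, the next enzyme in GABA breakdown, differed by -0.11 (limma adjusted p = 0.0138), and Slc6a11, a GABA transporter of astrocytes, by 0.06 (limma adjusted p = 0.291). Of the inhibitory postsynapse, 1 gene was tested: Lhfpl4, a partner of GABA type A receptors, at 21.1 ± 1.17 FPKM in Tip60 cKO and 25.5 ± 1.31 FPKM in controls (log2 difference -0.26, limma adjusted p = 0.000138), not past the fold.

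Of 32 listed interneuron transcription factors, 11 were in the table and 6 were tested, with 3 called higher, none called lower and a median log2 difference of 0.23. Over all tested genes, 20.1% were called higher and 6.52% lower. The list was chosen with earlier results of these data known, and no test of the list was made. None of the 3 was a member. Tshz1, a zinc finger factor, was at 2.96 ± 0.445 FPKM in Tip60 cKO and 1.92 ± 0.0719 FPKM in controls, a log2 difference of 0.43 (limma adjusted p = 4.49e-05). Nr2f2, a factor of interneurons from the caudal eminence, differed by 0.16 (limma adjusted p = 0.0159), close to Dlx2 and Sp9.

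Dlx2 has a neighbour in the DLX family list, Dlx1as, an antisense transcript at the Dlx1 locus. Dlx1as was at 9.79 ± 0.532 FPKM in Tip60 cKO and 8.10 ± 0.320 FPKM in controls (log2 difference 0.25, limma adjusted p = 0.000123), within the fold of 1.2. The ratio of Dlx2 to Dlx1as in Tip60 cKO was 1.01 times that in controls (95% interval 0.902 to 1.13; exact permutation p = 0.842). Strand cannot be told apart, so reads of Dlx1 may be part of Dlx1as. Dlx3 and Dlx4 were in the table below the filter. Sp8, the closest relative of Sp9, was also below it, at 0.372 ± 0.0797 FPKM in Tip60 cKO and 0.329 ± 0.0703 FPKM in controls. Dlx2 and Sp9 also belong to the list of neuroblast and immature neuron markers, of which 6 were tested. Of these, 2 were called higher and 1 lower, against 20.1% and 6.52% of all tested genes.

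Of 40 listed interneuron class genes that are not peptides, 12 were in the table and 10 were tested, with none called higher, 1 called lower and a median log2 difference of 0.11, against 0.10 over all tested genes. The lower gene was Igfbp6, a binding protein for insulin-like growth factors, at 1.11 ± 0.10 FPKM in Tip60 cKO and 2.36 ± 0.612 FPKM in controls (log2 difference -0.65, limma adjusted p = 5.68e-05). Id2, an inhibitor of basic helix-loop-helix factors, and Cplx3, a complexin, passed the adjusted p with 0.21 and 0.26 but not the fold. Necab1, a calcium-binding protein, was at 9.46 ± 0.920 FPKM in Tip60 cKO and 9.43 ± 0.964 FPKM in controls, and so, like Calb2, gave a log2 difference of 0.00, with a smaller spread. Of the calcium buffers and sensors, 5 were tested and 2 were called higher: Hpcal1, at 10.0 ± 0.470 FPKM in Tip60 cKO and 7.01 ± 0.789 FPKM in controls, and Kcnip1, at 8.35 ± 0.609 FPKM in Tip60 cKO and 6.53 ± 0.550 FPKM in controls. Beside the counts of both lists, 20.1% of all tested genes were called higher and 6.52% lower.

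The tested genes whose 12 values ran most like each member were found by the root mean square difference of their log2(FPKM + 1) values, each taken from its own control mean. For Slc32a1 they were Icmt (0.05), Eya2 (0.05) and Gpx1 (0.05), for Dlx2 Ankrd40 (0.05), BC037704 (0.05) and Gpr157 (0.05), and for Sp9 C2cd4c (0.07), Vmn1r65 (0.07) and Igsf3 (0.08). For Sncg they were Atad2 (0.06), Ptpn14 (0.06) and A830018L16Rik (0.06). Calb2 had no near gene, with S100a10 (0.18), Rps15 (0.18) and Apobec1 (0.19) the closest. No member was among the closest 3 of another, and the nearest pairing placed Sncg at rank 257 for Sp9. The measure covers 12 libraries that share the genotype difference, and it also picks genes of small spread.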

How the data were processed

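RNA-Seq was done on CA1 of 6 Tip60 cKO and 6 control mice. Libraries were made from total RNA with a TruSeq RNA kit per the labels, which do not say whether strand was kept. The authors deposited FPKM values, fragments per kilobase of transcript and M mapped reads (M, mega), for each library. As tools, the notes of the submitters list TopHat2 2.0.8, bedtools 2.16.2, CASAVA 1.8.2 and FastQC 0.10.0, and as genome mm9. Which program and annotation gave the FPKM values is not given in the sources used. FPKM values are no counts, so no count model was run.

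Of 10383 rows, 100 exact repeats were dropped and rows of a symbol were summed, which gave 10245 symbols. Small RNAs (528), genes at 0 in all libraries (2414) and genes with an isolated 0 (36) were set aside. Of 7267 genes left, 2423 averaged 0.5 FPKM or more and entered the test. It was limma (3.58.1, R 4.3.3) with log2(FPKM + 1) values, a prior that depends on the mean, robust variances, no covariates and Benjamini-Hochberg adjustment. A gene was called at an adjusted p below 0.05 and a fold of FPKM + 1 above 1.2. The scripts were tested on simulated data. Ratios within a library used a pseudocount of 0.1 FPKM and exact permutation tests, with 95% intervals that assume normal errors.

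Depth was estimated from the smallest steps of genes with 1 transcript at 31.0 to 37.9 M reads, and read numbers are estimates from it. Counting intervals cover counting error only. At most 0.413% of tested genes had equal values in any pair of libraries, so none was a repeat. Libraries correlated at r of 0.988 to 0.997 across genes within a genotype and 0.975 to 0.983 between genotypes, where genes are no replicates. Replicate numbers only name libraries.

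Coordinates are from GENCODE on GRCm38 and promoters from RefSeq, while the deposited values rest on mm9, so no coordinate was used to compute a value. The members and gene lists were chosen with earlier results of these data known. Named were the members, up to 4 called genes of a list in its main direction and up to 2 in the other, 4 peptide-class genes and the 3 nearest profiles. Fewer are named where lists do not bear on the members. Some genes that the rule names or that the lists and ratios counted are not reported here. Abat, Aldh5a1, Slc6a11, Lhfpl4, Nr2f2, Dlx1as, Dlx3, Dlx4, Sp8, Id2, Cplx3, Necab1, C1ql2, Ttr, Tac2 and Slc17a8 were chosen after their values were seen. Alternatives were other scalings, pseudocounts, filters, priors, row choices, exact tests and leaving out each library.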

Additional observations from a re-analysis of the deposited data

Results flagged for a closer look

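In 18 groups of 6 libraries checked for a value apart from the rest (the 5 members and 4 peptide-class genes in each genotype), 2 had one, where chance gives about 1 in 20 groups. Sp9 was at 1.32 FPKM in Tip60 cKO library 1, below the other 5 Tip60 cKO libraries at 1.63 to 1.77 FPKM. Without that library the Sp9 log2 difference was 0.19 (limma adjusted p = 0.0162), against 0.15 (0.0514) with it. Slc32a1 was at 18.5 FPKM in control library 1, below the other 5 control libraries at 19.6 to 20.2 FPKM. Without that library the Slc32a1 log2 difference was 0.29 (limma adjusted p = 0.000158).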

How the results depend on the processing

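Slc32a1 kept its direction and a p below 0.05 in all 21 alternatives run (log2 difference 0.15 to 0.33), where p is adjusted by limma except in the exact permutation test. Median-ratio scaling over genes above 0 in every library gave Dlx2 0.081 (limma adjusted p = 0.119) and Sncg 0.063 (0.356), left 1 member past the adjusted p and 0 past both thresholds, called 243 genes higher and 361 lower over all tested genes, against 486 and 158 with the values as deposited, and called 8 genes of the lists lower, against 4. Upper-quartile scaling gave Sncg 0.13 (limma adjusted p = 0.0567) and 0 members past both thresholds. Median-ratio scaling over tested genes, chosen after seeing the data, gave Sncg 0.10 (limma adjusted p = 0.148), 0 members past both thresholds, and 289 genes higher and 279 lower. With a pseudocount of 0.1 FPKM 2 members, Slc32a1 and Dlx2 (0.28), passed both thresholds. For Sp9, at 0.15, a constant prior gave limma adjusted p = 0.0460 and the exact permutation test an unadjusted p of 0.0303. Without a filter the limma adjusted p was 0.113. Median-ratio scaling over genes above 0 in every library gave Sp9 0.05 (limma adjusted p = 0.512). Over tested genes it gave 0.08 (0.322), and upper-quartile scaling gave 0.11 (0.196). Leaving out each library in turn gave 0.28 to 0.33 for Slc32a1, 0.16 to 0.20 for Dlx2, 0.10 to 0.19 for Sp9, -0.09 to 0.08 for Calb2 and 0.16 to 0.22 for Sncg, with 3 to 4 members past the adjusted p, 1 past both thresholds, 466 to 517 genes higher and 155 to 178 lower. The cause of these dependences was not tested. No ratio within a library changed its call in the 13 alternatives run for each. No paired analysis was possible because the labels give the genotypes no shared replicate numbers. For Dlx2, Sncg and Calb2, which rest on about 100 reads in some libraries, the depth limits what a single library can show.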

Other observations

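Slc17a8, the vesicular glutamate transporter found in some cholecystokinin interneurons, was at 2.29 ± 1.02 FPKM in Tip60 cKO and 1.96 ± 0.221 FPKM in controls (SD, n = 6 each; log2 difference 0.11, limma adjusted p = 0.534). The highest Tip60 cKO library was at 4.33 FPKM, above the highest control library at 2.21 FPKM, while the median was 1.92 FPKM in Tip60 cKO and 1.98 FPKM in controls, so the mean and the median differed in direction.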
